A study of Trichoderma reesei with 18 samples.

Results

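The comparison described here set the Trichoderma reesei deletion mutant QM6aΔ21168 (Δ21168) against its parent QM6a, the wild type (WT), in constant darkness. It used 6 of the 18 RNA sequencing libraries of the study, 3 of each strain, and every gene row of the count table. Of the 10879 rows, 9079 had enough reads to be tested. T. reesei is a filamentous fungus known for the cellulases it secretes. Mycelium was grown for 96 h at 28°C in a minimal medium with cellulose as carbon source, and ribosomal RNA was depleted before a stranded library was made. The other 12 libraries, 3 per group, held WT in constant light, Δ21168 in constant light, and the mutant Δ80186 in darkness and in light. All strains are QM6a derivatives, and the labels give no number of independent transformants for a mutant. Whether replicate libraries stem from separate cultures is not stated either. The p-values thus measure only how far these samples spread, which may be technical. That spread was estimated from all 18 libraries together.

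Both deleted genes are described in the study's title as mitogen-activated protein kinase kinases (MAPKK), the middle kinases of cascades in which each kinase phosphorylates the next. By the order of the names there, TR80186 belongs to the HOG cascade, which in yeast answers osmotic stress, and TR21168 to the pheromone cascade. In yeast the pheromone cascade relays the mating signal, and in filamentous fungi the homologous cascade is also needed for the fusion of vegetative hyphae. RefSeq's gene table of QM6a gives the locus with the number 21168 the symbol mkk1, which in budding yeast names a MAPKK of the cell wall integrity cascade. Constant light is a strong signal to this fungus, and darkness is the condition without it.

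The rows of the count table are called identifiers here, because nearly all are built of a letter, digits and a closing W or C, and 0 of them were found in RefSeq's table. Neither the files nor that table pair them with gene names, so no pathway list could be counted, and identifiers are described by their levels alone. The 6 libraries held 7945697 to 14353793 counts, with fewer in the mutant (7945697 to 12415791) than in WT (13053446 to 14353793). The mutant's libraries carry numbers of a series of their own in the labels, in darkness and in light. This library series and the genotype cannot be told apart in any comparison of Δ21168 with another strain.

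TrE0746W was the 1 identifier with at most 3 reads in every Δ21168 library and at least 10 CPM (reads scaled to library size) in each of the 12 other libraries. In darkness it had 1291, 1151 and 1242 reads in WT, 1104, 1347 and 1102 in Δ80186, and 0, 0 and 0 in Δ21168. It was singled out by this loss, so the loss is a description of the labelled deletion and no test of it. The 3 rows with a gene name, mat1-1-1, mat1-1-2 and mat1-1-3, are mating type genes and belong to the mating type opposite to that of QM6a. In the 6 dark libraries compared they had 0 reads in all, and mat1-1-1 had at most 2 reads in any library of the study.

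The libraries labelled Δ21168 differed from WT in darkness in many genes. At an adjusted p under 0.05, here called changed, 4282 of 9079 genes differed, which is 47.2% of those tested. Of these, 2148 were higher in the mutant (23.7%) and 2134 lower (23.5%). Most differences were small: 1406 of the higher and 1486 of the lower genes changed by less than 2-fold. At least 2-fold higher were 742 genes (8.17%), and at least 2-fold lower 648 (7.14%). These are called the raised and the lowered genes below. Beyond 32-fold lay 22 higher and 25 lower genes. The 3 mutant values lay wholly above the 3 WT values in 706 of the 742 raised genes, and wholly below in 642 of the 648 lowered ones. Of all genes tested, 2243 were higher and 2317 lower without overlap.

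**Figure D1:**
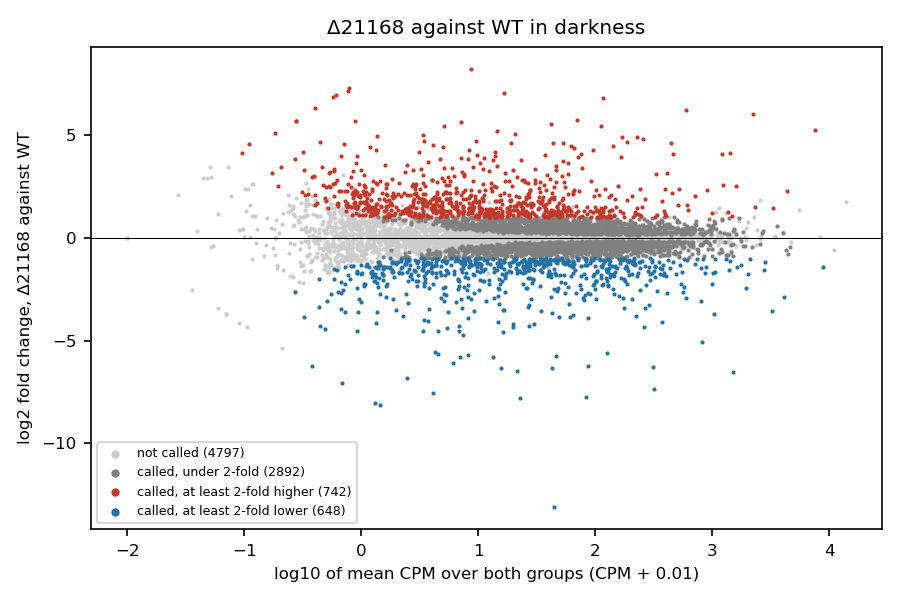
Each point is 1 of 9079 genes, with the log2 fold change of Δ21168 against WT in darkness on the vertical axis and the log10 mean CPM of both groups (3 libraries each) on the horizontal axis. Red and blue points are the 742 genes at least 2-fold higher and the 648 at least 2-fold lower. The lowest point is TrE0746W.

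Transcripts with very many reads were among those changed. Of 152 genes whose higher group mean reached 1000 CPM, 15 were raised and 27 lowered, or 27.6% together. Among the 2357 genes from 100 to 1000 CPM these were 97 and 162, or 11%. The class from 10 to 100 CPM held 302 and 255 of 4472 genes, or 12.5%, and that from 1 to 10 CPM 292 and 192 of 1709, or 28.3%. Under 1 CPM it was 36 and 12 of 389, or 12.3%, so the share did not rise steadily with the level. CPM is not corrected for transcript length, so these classes describe how many reads stand behind a gene and do not rank genes by RNA molecules. In sum, the raised genes took 1.88%, 2.25% and 2.08% of the library total, scaled by TMM as the CPM are, in the 3 dark WT libraries and 10.2%, 8.89% and 8.91% in the mutant. The lowered genes fell from 14.3%, 13% and 13.5% of that total to 4.33%, 4.11% and 3.71%. Both sets were chosen on these libraries, so their sums there are a description of the choice.

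The following identifiers had at least 100 CPM in the higher group, no overlap between the groups, and the largest changes that also held without mutant replicate 1. TrA1206C stood at 1.73, 2.71 and 1.82 CPM in WT and at 298, 232 and 164 CPM in Δ21168. All mutant libraries lay above all WT libraries (log2 fold change 6.80 ± 0.36 SE, edgeR adjusted p = 5e-09). TrC0062W went from 17.3, 12.9 and 17.1 CPM to 1528.7, 1092.9 and 909.7 CPM (6.22 ± 0.55 SE, adjusted p = 1.1e-06). For both, mutant replicate 1 was the highest of its group and replicate 3 the lowest, and no mutant library came near the WT range. The same order of mutant libraries was found in TrB1044C, TrD0248C, TrE0391W and TrD0068W, named below, but not in TrC0005C or TrF0464C. Whether these identifiers vary together was not tested. Dark Δ80186 was above WT as well, at 95.4 ± 14.8 CPM (SD, n = 3) for TrA1206C and 273 ± 62.2 CPM for TrC0062W. In light both identifiers were also higher in Δ21168 than in WT, by 2.96 ± 0.31 SE (TrA1206C, adjusted p = 4.8e-06) and 2.55 ± 0.46 SE (TrC0062W, adjusted p = 0.00076). The light WT libraries spread widely, at 3.58, 6.24 and 11.2 CPM for TrA1206C and 21, 65.3 and 130 CPM for TrC0062W. All lay below the light libraries of Δ21168.

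In the other direction, TrE1253C fell from 184, 148 and 164 CPM to 0.819, 0.876 and 0.658 CPM (log2 fold change −7.73 ± 0.23 SE, adjusted p = 1.1e-13). Only 7 to 8 reads per mutant library lie behind the low values. TrE0110C fell from 653, 579 and 646 CPM to 3.38, 5.13 and 3.21 CPM (−7.35 ± 0.16 SE, adjusted p = 3.1e-15), with 33 to 41 reads per mutant library. Neither gene had a mutant library near the WT range. Dark Δ80186 was below WT as well, at 42.1 ± 8.24 CPM (SD, n = 3) for TrE1253C and 53.8 ± 5.75 CPM for TrE0110C.

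Identifiers near silence in darkness in only 1 of the strains compared, WT or Δ21168, were few, and were looked for after the data were seen. At most 3 reads in the 3 WT libraries together and at least 1 CPM in each mutant library were found for 3 identifiers. TrA1922W had 0 reads in the 6 libraries of WT and 1 read in the 6 of Δ80186. It had 19, 9 and 19 reads in Δ21168 in darkness and 16, 18 and 11 in light. All but 1 of its reads thus lay in libraries of Δ21168, at a mean of 1.54 CPM in darkness. TrB1819C had 2 reads in the dark WT libraries in all and 140, 155 and 225 in the mutant, but 9, 7 and 17 in the mutant in light. TrD0788W had 3 reads in dark WT and 11, 32 and 33 in the mutant. In the reverse case, 6 identifiers had at most 3 reads in the 3 mutant libraries and at least 1 CPM in each WT library. TrE0746W is one of them, and the 5 others had at most 6 reads in the 3 light WT libraries together. Among these 5, TrC0019C had 85, 76 and 174 reads in dark WT and 1 in the 3 dark mutant libraries. In light it had 0 reads in each library of every strain. Dark Δ80186 was low in several of these 5 too. Its 3 libraries together had 4 reads of TrE1245C, 3 of TrG1002W and 6 of TrF0334W, against 204, 73 and 108 in dark WT. Of TrC0019C and TrF0045W they had 32 and 36 reads, against 335 and 119.

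**Figure D2:**
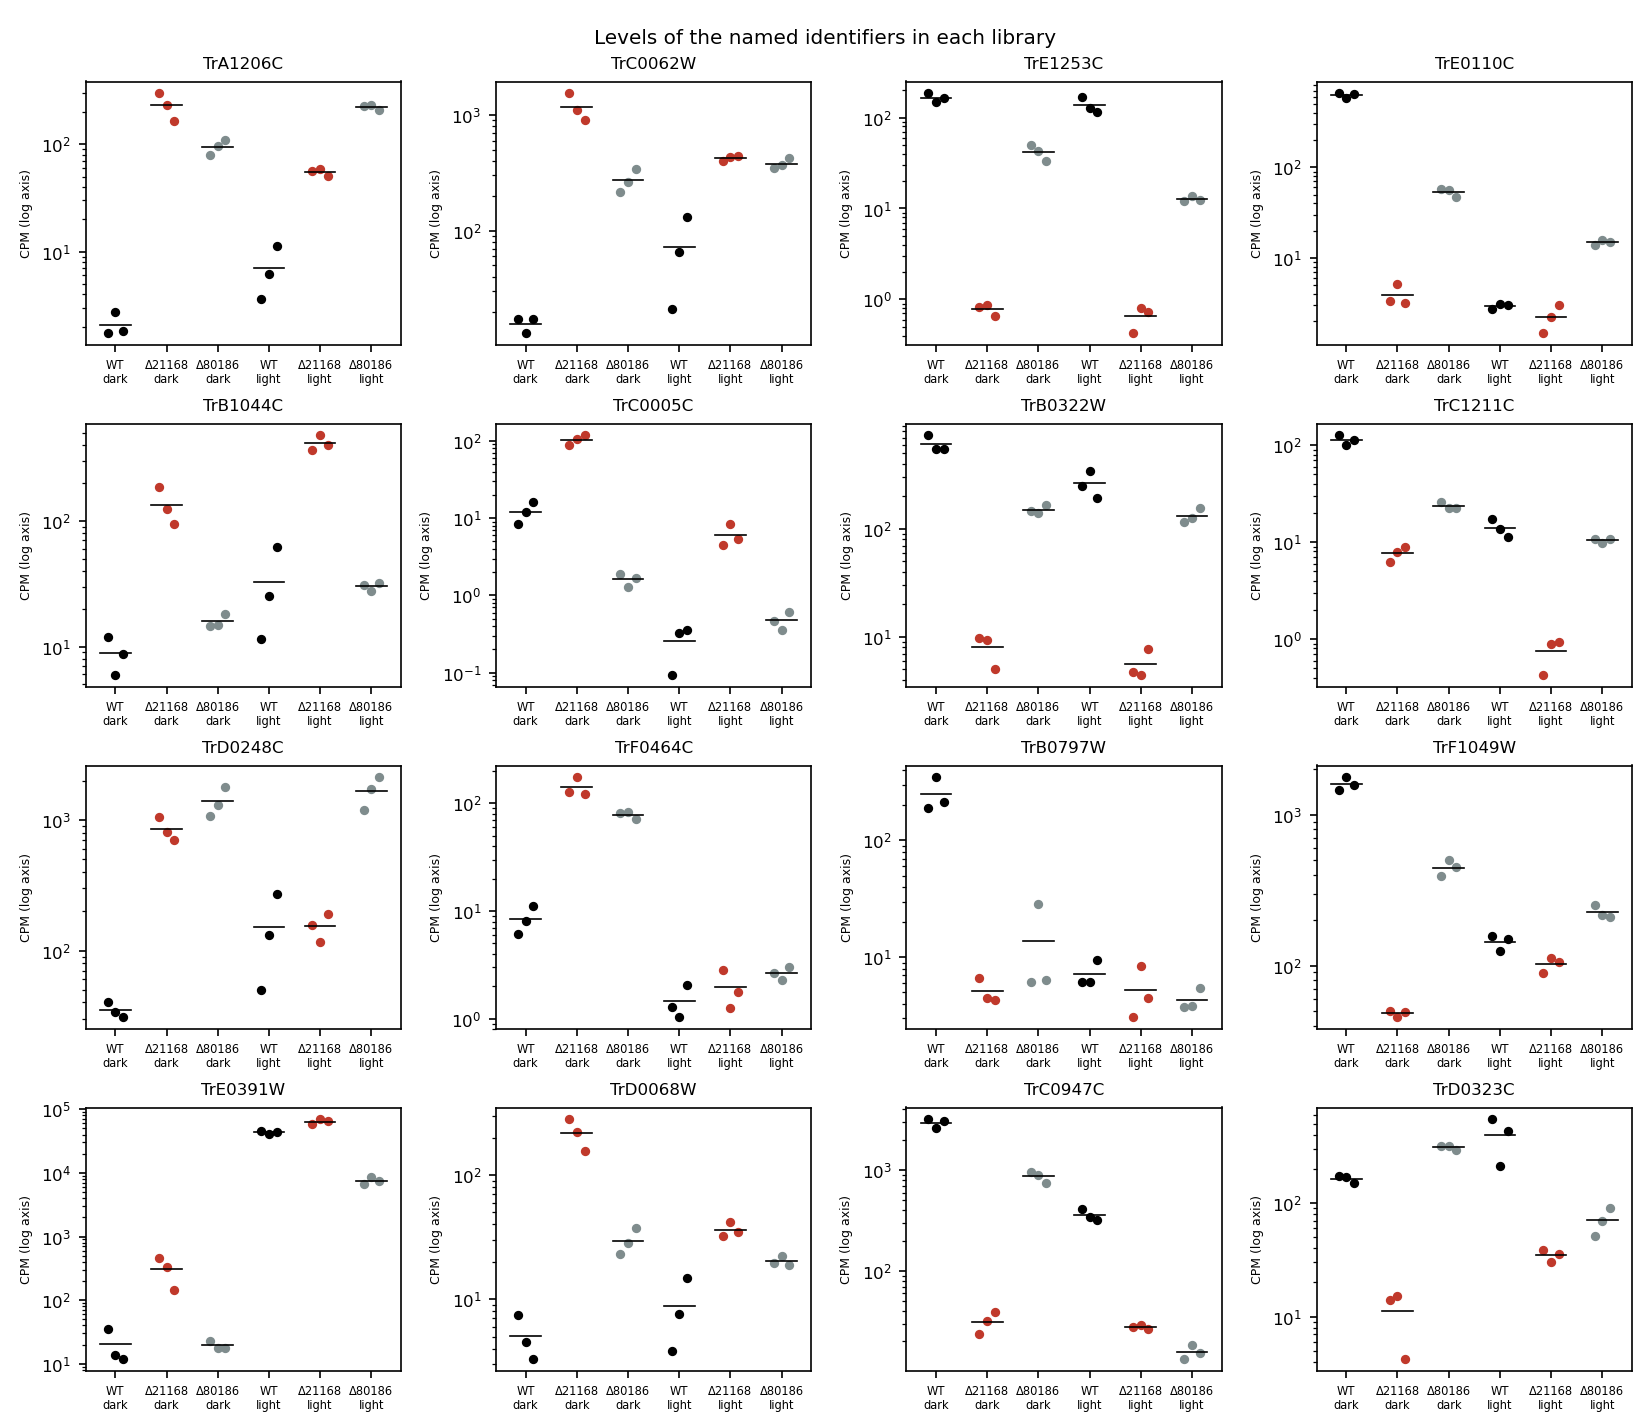
CPM of the 16 identifiers named by rule, on log axes, in the 18 libraries: points are libraries, lines are group means of 3, black is WT, red is Δ21168 and grey is Δ80186. In the first panel the 3 dark libraries of Δ21168 lie between 164 and 298 CPM and those of WT between 1.73 and 2.71 CPM. The 2 columns of panels on the right show lowered identifiers and the others raised ones.

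The same deletion was measured a second time in light, in 6 libraries that share none with the dark comparison. There 3635 genes were called (40%), 1773 higher (19.5%) and 1862 lower (20.5%). Scaled by library totals alone, 62.6% of the calls in light were higher, against 48.8% by TMM. Of the 742 genes raised in darkness, 366 were also higher in the mutant in light (49.3%), 36 were lower (4.85%) and 340 did not pass the test. Of the 648 lowered genes, 301 were also lower in light (46.5%), 63 were higher (9.72%) and 284 did not pass. Beside these stand 19.5% higher and 20.5% lower among all genes tested. The median log2 fold change in light was 0.81 for the raised and −0.53 for the lowered genes, against 0.02 for all genes tested. In darkness these medians were 1.68 and −1.59. In sum, the raised genes held 6.4% to 7.17% of the scaled total in the WT libraries in light and 10.1% to 11.6% in those of the mutant. A single member, TrE0391W, made up 4.14% to 4.60% in light WT and 5.77% to 6.89% in the light mutant, and its own difference in light did not pass the test (adjusted p = 0.28). Without it the raised genes held 2.09% to 2.86% in WT and 4.3% to 4.72% in the mutant. The lowered genes held 8.08% to 9.99% in WT in light and 3.25% to 3.38% in the mutant. The light ranges of the strains did not overlap in either set, nor in the raised set without TrE0391W. Seen from the other side, of the 604 genes at least 2-fold higher in light (6.65%), 259 were raised in darkness, which is 42.9% of the light set and 34.9% of the dark set. Of the 419 at least 2-fold lower in light (4.62%), 194 were lowered in darkness, or 46.3% and 29.9%. The separate library series of the mutant applies to both conditions.

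**Figure D3:**
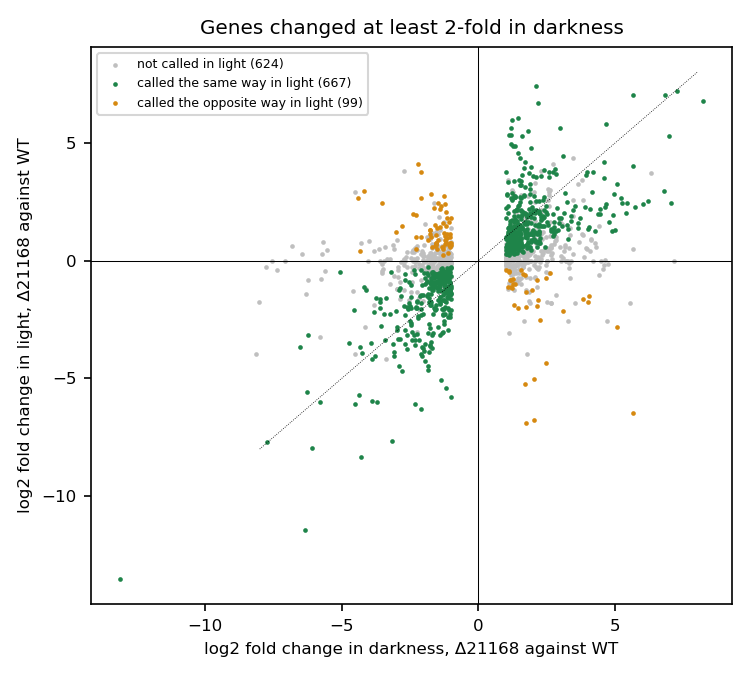
Each point is a gene changed at least 2-fold in darkness, with its log2 fold change (Δ21168 against WT) in darkness on the horizontal and in light on the vertical axis. Of the 1390 genes, those in green were called in the same direction in light, those in orange in the opposite one and those in grey were not called. The dotted line marks equal change, and the point at the lower left is TrE0746W.

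Some identifiers differed in the same direction in darkness and light. Those named here were called that way in both and were ranked by the smaller of their 2 absolute log2 fold changes. TrB1044C stood at 11.9, 5.89 and 8.72 CPM in dark WT and at 184.8, 124.6 and 95.4 CPM in dark Δ21168 (log2 fold change 3.92 ± 0.50 SE, adjusted p = 3e-05). In light it was at 32.9 ± 25.9 CPM (SD, n = 3) in WT and 416 ± 57.9 in the mutant (3.65 ± 0.47 SE, adjusted p = 4.6e-05). The groups did not overlap in either condition, although light WT libraries ranged from 11.6 to 61.7 CPM. TrC0005C went from 8.49, 12 and 16 CPM to 88.1, 106 and 118 CPM in darkness (3.09 ± 0.22 SE, adjusted p = 6.1e-09). In light it had 1 to 5 reads per WT library and 43 to 94 per mutant library (4.45 ± 0.41 SE, adjusted p = 2.5e-07). Darkness minus light, its log2 fold changes differed by −1.36 ± 0.53 SE, which did not pass the edgeR test (adjusted p = 0.063). The light libraries of both strains lay below their dark ones, and the mutant was the higher strain in each condition. Dark Δ80186 was at 15.9 ± 1.92 CPM for TrB1044C and, below WT, at 1.61 ± 0.31 CPM for TrC0005C.

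Of the lowered genes, TrB0322W ranked first by this rule once the identifiers named above were passed over, since TrE1253C had larger changes in both conditions. It had 733, 555 and 554 CPM in dark WT and 9.83, 9.39 and 5.1 CPM in dark Δ21168 (log2 fold change −6.27 ± 0.31 SE, adjusted p = 2.2e-09). In light, 264 ± 77.8 CPM in WT stood against 5.62 ± 1.82 CPM in the mutant (−5.56 ± 0.31 SE, adjusted p = 9.7e-09). In the mutant its dark and light libraries overlapped. TrC1211C was at 126, 101 and 112 CPM in dark WT and at 6.24, 7.89 and 8.88 CPM in Δ21168 (−3.88 ± 0.16 SE, adjusted p = 7.8e-12), and in light at 14.1 ± 3.02 and 0.752 ± 0.287 CPM (−4.19 ± 0.24 SE, adjusted p = 4.7e-10). TrE1253C, described above, was at 138 ± 27.5 CPM in light in WT and 0.653 ± 0.204 CPM in the mutant, a log2 fold change of −7.68 against −7.73 in darkness. Dark Δ80186 was at 151 ± 14.35 CPM for TrB0322W and 23.7 ± 1.89 CPM for TrC1211C, between Δ21168 and WT.

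For other genes the difference between the libraries of Δ21168 and WT itself differed between darkness and light. An interaction, the log2 difference between mutant and WT in darkness minus that in light, was called for 2778 genes (30.6%), 1453 positive (16%) and 1325 negative (14.6%). Scaled by library totals alone, 40.7% of these calls were positive, against 52.3% by TMM. It was positive for 301 of the 742 raised genes and negative for 26, and negative for 339 of the 648 lowered genes and positive for 44. Interactions of at least 2-fold were positive in 490 genes (5.4%) and negative in 547 (6.02%), of which 240 were raised and 258 lowered genes. The dark libraries enter both the choice of these genes and the interaction, and a choice of large dark changes favours interactions of this sign, so these counts are given as a description.

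TrD0248C, TrF0464C, TrB0797W and TrF1049W were picked for a called interaction and an absolute log2 fold change in light under 0.5. Among such identifiers not yet named they had the largest changes in darkness. Their small differences in light and their interactions thus follow from the choice and are given as a description. TrD0248C was changed in darkness with no detected difference in light. It stood at 40.4, 33.7 and 30.7 CPM in dark WT and at 1062, 809 and 699 CPM in dark Δ21168 (log2 fold change 4.62 ± 0.53 SE, adjusted p = 1.3e-05). In light the groups overlapped, at 49.4, 132 and 272 CPM in WT and 158, 116 and 191 CPM in the mutant (0.04 ± 0.46 SE; interaction 4.58 ± 0.68 SE, adjusted p = 0.00026). The 3 light libraries of WT spread more widely than those of the mutant here. In darkness Δ80186 had 1393.7 ± 360.8 CPM, and each of its libraries also lay above those of WT. TrF0464C went from 6.08, 8.06 and 11.1 CPM to 127, 174 and 123.2 CPM in darkness (4.07 ± 0.22 SE, adjusted p = 7.8e-10), and in light stood at 1.47 ± 0.55 CPM in WT and 1.96 ± 0.81 CPM in the mutant (interaction 3.68 ± 0.45 SE, adjusted p = 1.7e-05). The dark level of TrB0797W was 190, 345 and 212 CPM in WT against 6.65, 4.51 and 4.27 CPM in Δ21168 (−5.60 ± 0.60 SE, adjusted p = 6.7e-06). In light WT was at 7.22 ± 1.88 CPM and the mutant at 5.3 ± 2.74 CPM (interaction −5.17 ± 0.87 SE, adjusted p = 0.00063). TrF1049W fell from 1446.3, 1760.8 and 1572.7 CPM in dark WT to 49.6, 45.3 and 49.5 CPM in Δ21168 (−5.05 ± 0.13 SE, adjusted p = 1.8e-14). In light it was at 144 ± 16.4 CPM (SD, n = 3) in WT and 102 ± 12.3 CPM in the mutant, a smaller difference that also passed the test (−0.50 ± 0.11 SE, adjusted p = 0.0019). TrE0110C belongs here too: in light it was at 2.95 ± 0.17 CPM in WT and 2.25 ± 0.77 CPM in the mutant (−0.40 ± 0.22 SE, adjusted p = 0.16). Dark Δ80186 was at 78.3 ± 6.05 CPM for TrF0464C, 13.7 ± 12.9 for TrB0797W and 445 ± 53 for TrF1049W. These means lay between those of Δ21168 and WT.

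Whether the genes changed in Δ21168 also respond to light was asked in Δ80186 alone, whose 6 libraries enter neither side of the dark comparison. In that strain 4836 of the 9079 genes were called (53.3%), 2532 higher in light (27.9%) and 2304 lower (25.4%). At least 2-fold, 560 were raised by light (6.17%) and 1213 lowered (13.4%). Of the 742 genes raised in Δ21168 in darkness, light raised 120 in Δ80186 at least 2-fold (16.2%) and lowered 282 (38%). Of the 648 lowered genes, light raised 57 at least 2-fold (8.8%) and lowered 202 (31.2%). At least 2-fold, more genes were lowered than raised by light in each set, as in the whole table. At any fold the whole table held more genes higher in light than lower. Among the 4797 genes not called in darkness, light raised 5.63% at least 2-fold and lowered 10.4% at least 2-fold. No test was made of these shares. Δ80186 is itself a mutant, so it is no neutral gauge of light. In darkness its mean lay between those of WT and Δ21168 for 466 of the raised and 502 of the lowered genes. It lay on the side of WT away from Δ21168 for 127 and 98, and beyond Δ21168 for 149 and 48. The sets were chosen for a gap between WT and Δ21168, which favours a place between them, so nothing is read from these counts. A gene already shifted in dark Δ80186 enters its light response with that shift. The shares are thus tied to this strain and do not measure the light response of WT. The raised set as a whole took 5.49%, 6.08% and 7.19% of the scaled total of Δ80186 in darkness and 9.75%, 10% and 9.92% in light (without TrE0391W, 9.09% to 9.17% in light). The lowered set took 10.5%, 10.3% and 9.42% in darkness and 10%, 9.47% and 9.16% in light.

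**Figure D4:**
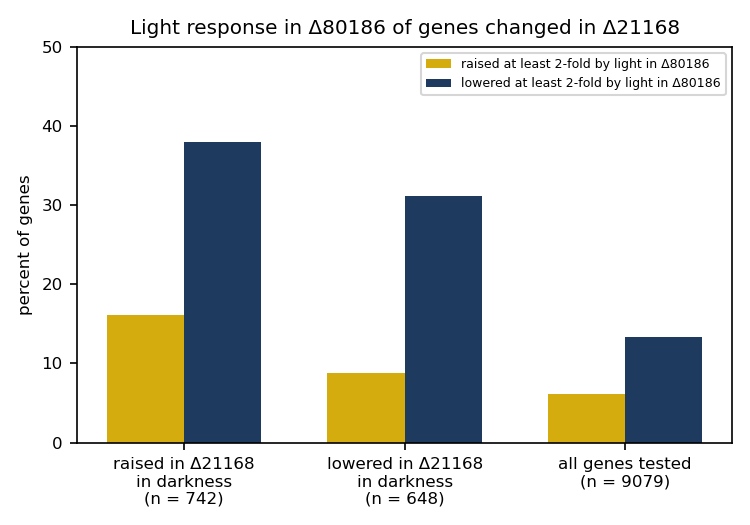
Bars give the percent of genes that light raised (yellow) or lowered (dark blue) at least 2-fold in Δ80186, for the 742 genes raised and the 648 lowered in Δ21168 in darkness and for all 9079 genes tested. Lowering by light was found for 38%, 31.2% and 13.4% of these sets.

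The other MAPKK mutant served to ask where a level in Δ21168 in darkness stood apart from Δ80186 as well as from WT. Tested directly, 4010 genes differed (44.2%), 1909 higher in Δ21168 than in Δ80186 (21%) and 2101 lower (23.1%). At least 2-fold, 622 were higher (6.85%) and 585 lower (6.44%). Of the 742 raised genes, 369 were higher than in Δ80186, 58 lower and 315 not called. Of the 648 lowered genes, 485 were lower than in Δ80186, 13 higher and 150 not called. The 3 dark libraries of Δ21168 enter both comparisons, so nothing is read from the size of these shares. The levels side by side in darkness were 1.88% to 2.25% of the scaled total in WT, 5.49% to 7.19% in Δ80186 and 8.89% to 10.2% in Δ21168 for the raised set. For the lowered set they were 13% to 14.3%, 9.42% to 10.5% and 3.71% to 4.33%. The sets were chosen between WT and Δ21168, so nothing is read from the order of these levels.

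Raised against both strains was TrE0391W, an identifier with very many reads in light. In darkness it had 34.9, 13.8 and 11.7 CPM in WT, 23.1, 17.7 and 17.5 CPM in Δ80186, and 460, 326 and 146 CPM in Δ21168. The log2 fold change was 3.95 ± 0.45 SE against WT (adjusted p = 1.1e-05; 4.63 without WT replicate 1) and 3.999 ± 0.45 SE against Δ80186 (adjusted p = 1.3e-05). In light it rose to 43530.2 ± 2297.8 CPM in WT, 7540.3 ± 960.7 CPM in Δ80186 and 64030.5 ± 5770.8 CPM in Δ21168. Every dark library of every strain thus lay far below every light library. TrD0068W stood at 7.53, 4.49 and 3.27 CPM in WT, 23.1, 28.5 and 37.2 CPM in Δ80186 and 280, 222 and 155 CPM in Δ21168. Its log2 fold change was 5.41 ± 0.43 SE against WT (adjusted p = 2.7e-07) and 2.89 ± 0.36 SE against Δ80186 (adjusted p = 2.8e-05).

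Among those lowered against both, TrC0947C had over 1000 CPM in dark WT. It stood at 3176.9, 2593.3 and 3072.8 CPM in WT, 969, 889 and 753 CPM in Δ80186 and 23.8, 31.7 and 39.2 CPM in Δ21168. The log2 fold change was −6.54 ± 0.20 SE against WT (adjusted p = 1.5e-12) and −4.78 ± 0.18 SE against Δ80186 (adjusted p = 3e-11). In light the level in Δ21168, 27.7 ± 1.28 CPM, lay within its dark range, while Δ80186 was at 15.7 ± 2.59 and WT at 357 ± 48.8 CPM. TrD0323C had 172, 168 and 150 CPM in WT, 315, 316 and 296 CPM in Δ80186 and 14, 15.3 and 4.19 CPM in Δ21168. Here Δ80186 lay above WT and Δ21168 below it (−3.91 ± 0.43 SE against WT, adjusted p = 8.2e-06; −4.83 ± 0.44 SE against Δ80186, adjusted p = 2e-06).

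Changed identifiers also stood side by side in the numbering of the table. That the numbers follow the order of genes on chromosomes is not stated in the sources used here. There were 11 runs of at least 4 consecutively numbered identifiers that were all raised, and 11 that were all lowered. They held 44 of the 742 raised genes (5.93%) and 48 of the 648 lowered ones (7.41%). Each raised run had 4 members. The count of raised runs was 7 without mutant replicate 3, without WT replicate 1 or without WT replicate 3. That of lowered runs was 5 without mutant replicate 3 and 6 without WT replicate 1, so these counts depend on single libraries. No number expected by chance was computed, and reads of overlapping neighbours could not be told apart. By letter, the raised share of tested genes ranged from 6.35% (E) to 10.8% (F) and the lowered share from 6.21% (C) to 8.61% (G).

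The longest lowered run was of 7 identifiers, from TrF0378C to TrF0384W. All 7 were lower in the mutant, with log2 fold changes from −5.74 to −1.93. Its first member, TrF0378C, stood at 122, 86.4 and 65.9 CPM in WT and at 1.54, 2.76 and 1.07 CPM in Δ21168. TrF0379W fell from 27.1, 20.3 and 24 CPM to 0.717, 6.89 and 2.22 CPM, so that mutant replicate 2 was the highest of its group in both. TrF0381W, TrF0382C and TrF0384W had a mean under 3 CPM in dark WT, so they rest on few reads. In light 1 of the 7, TrF0381W, was called lower, and TrF0382C and TrF0384W had no reads in either strain. In Δ80186 light raised the first 4 members and lowered the last 3. In WT the means of TrF0378C, TrF0379W and TrF0380W were lower in light, unlike in Δ80186. They were 91.3, 23.8 and 14.3 CPM in dark WT and 11.9, 4.48 and 2.86 CPM in light WT. In Δ80186 they were 8.735, 3.52 and 2.14 CPM in darkness and 62.8, 13.6 and 6.31 CPM in light. In WT as well, TrF0381W was higher in light and the last 3 members lower. The light response of WT was not tested. At least 2-fold lower and called were 6 of the 7 without WT replicate 1, and all 7 without any other of the 6 libraries. In the 32 numbers from TrF0378C to TrF0409C, 20 identifiers were tested, 17 of them were lowered (7.14% of all genes tested were) and 2 were called higher. This stretch begins and ends on members of lowered runs, so its limits were set by the calls it counts. Just outside it, TrF0375W and TrF0410C were raised, by 5.21 and 1.98 on the log2 scale, and TrF0376C and TrF0377W were lower by less than 2-fold. The last 4 of these, TrF0406C to TrF0409C, were also lower in light, with a median log2 fold change of −4.38 there and −1.32 in darkness.

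**Figure D5:**
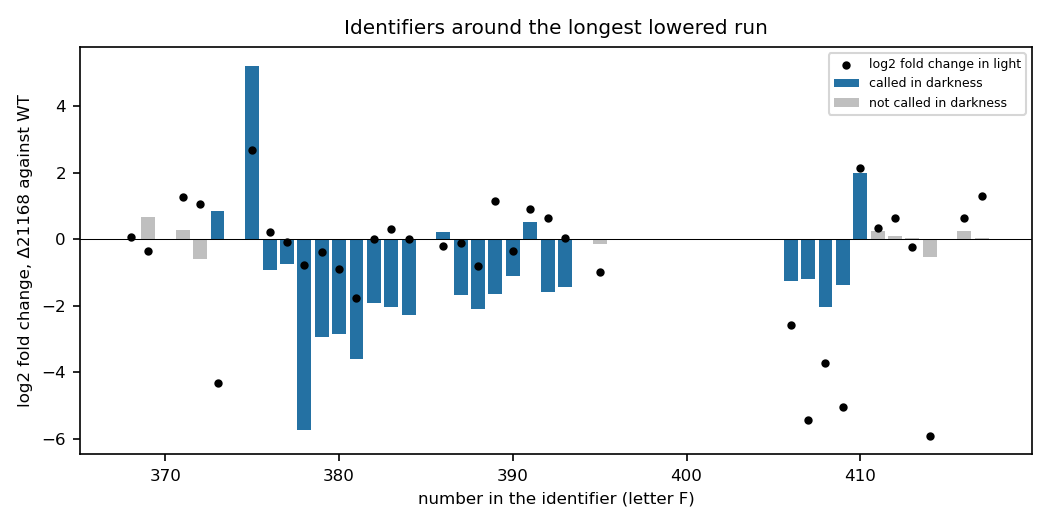
Log2 fold change of Δ21168 against WT for the tested identifiers around the longest lowered run, by the number in the identifier (letter F): bars are darkness (blue where called, grey where not) and black points are light. Bars from 378 to 384 lie between −5.74 and −1.93, and a point at 0 can mean no reads in light in either strain.

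A raised run, from TrD0246C to TrD0249W, held TrD0248C and was picked for that after its values were seen. Its 4 members rose by 3.34 to 4.62 on the log2 scale in darkness, and 0 of them were called higher in light. The mean of TrD0246C was 3.46 CPM in dark WT and 83.7 CPM in dark Δ21168, while TrD0249W had means of 0.0985 and 1.05 CPM and so few reads.

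Libraries of the mutant spread more than those of WT in darkness. The common biological coefficient of variation, the spread between libraries beyond counting error, was 0.234 in dark Δ21168 and 0.13 in dark WT, and 0.172 in the mutant without replicate 1. Of 6958 genes with at least 10 CPM in a dark mutant library, 234 had replicate 1 at least 2-fold from the mean of the others, on the log2(CPM + 1) scale, while those lay within 2-fold of each other. It was lower in 229 of these and higher in 5. By the same measure mutant replicate 3 stood apart in 118 genes, higher in 97 and lower in 21, and replicate 2 in 30. Of the 118, 47 were changed in darkness and 39 were raised or lowered, against 35 and 26 of the 234. In dark WT, replicates 1, 2 and 3 stood apart in 36, 3 and 59 of 6821 genes. The 229 genes low in mutant replicate 1 had medians of 27.3, 97.2 and 106 CPM in the 3 mutant libraries. In dark WT their medians were 48.9, 67.6 and 82.5 CPM, and replicate 1 was the lowest of its group in 212 of them. Of the same genes, WT replicate 1 was the lowest of its group in light in 174, mutant replicate 2 in light in 153 and Δ80186 replicate 3 in darkness in 151. What sets these libraries apart was not tested. In the comparison, 30 of the 229 genes were changed (13.1%, against 47.2% of all genes tested), and without mutant replicate 1 it was 89, of which 80 were higher in the mutant. The 229 were chosen for a low replicate 1, which disfavours a call with it and favours a higher call without it. These counts thus describe the choice.

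Leaving out mutant replicate 1 kept the call and direction of 706 of the 742 raised and 621 of the 648 lowered genes. A fit restricted to the 6 dark libraries of both strains, which estimates the spread from them alone, called 611 of the raised genes (82.3%) and 599 of the lowered ones (92.4%). It called 1479 higher and 1654 lower genes at any fold, against 2148 and 2134 when all 18 libraries share the estimate. In the fit of 6 libraries the edgeR adjusted p was 0.0087 for TrE0391W, against 1.1e-05 with all 18. It was 0.0026 for TrD0323C, against 8.2e-06, and 5.1e-06 for TrE0110C, against 3.1e-15. For TrD0248C it was slightly lower, at 1.2e-05 against 1.3e-05.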

How the data were processed

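The deposited file is a table of whole-number read counts per identifier, not normalised, with 1 column for each of 18 libraries, matched to samples by the description in the labels; 0 columns were left out. Reads were aligned with HISAT2 2.2.1, per the submitters' processing notes. The design text names the transcripts of a published complete QM6a genome. Not given in the sources used here are the genome build of the alignment, the counting tool, its strand setting and its treatment of reads with several alignments, so near-identical copies and antisense partners are uncertain. Groups followed the sample titles. Genes were kept with filterByExpr (minimum count 10, minimum total 15), leaving 9079 and removing 1800. edgeR 4.0.16 (R 4.3.3) fitted all 18 libraries with TMM factors, a mean per group, robust quasi-likelihood F tests and 12 residual degrees of freedom. Adjusted p is Benjamini-Hochberg over all genes tested. An SE is the absolute log2 fold change over the square root of F. CPM are computed here on TMM-scaled totals; SD is over 3 libraries.

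Named identifiers had at least 100 CPM in the higher dark group and no overlap of the dark groups; at most 2 each way were taken per comparison, by largest change, an identifier being named once. Comparisons, members, lists and rules were chosen with earlier results of these data known. The code was tested on simulated counts. Chi-square per degree of freedom between replicate counts was 18.6 to 85.5 in the 6 dark libraries compared and at least 4.37 in every pair of all 6 groups, above the sampling noise of a repeated library. A summed share is a sum of CPM over the TMM-scaled library total. Same-numbered WT and mutant dark libraries had correlations of deviations of 0.55, −0.11 and 0.16, and differently numbered ones of −0.41 to 0.39. The largest was that of the replicates numbered 1. Whether libraries of the same number belong together was not tested, and the main fit had no replicate term. Alternatives were other scaling, DESeq2 1.42.0, other filters, fewer libraries and a replicate block. Counting intervals are not given, since replicate spread exceeds counting error.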

Additional observations from a re-analysis of the deposited data

Results flagged for a closer look

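The difference between Δ21168 and WT in darkness differed from that in light, by the interaction test, for 2778 genes. Among the identifiers named above the difference (darkness minus light, log2) was 3.84 for TrA1206C, 3.67 for TrC0062W, 4.58 for TrD0248C, 3.68 for TrF0464C, 3.39 for TrE0391W and 3.39 for TrD0068W. It was −6.96 for TrE0110C, −5.17 for TrB0797W, −4.55 for TrF1049W and −2.86 for TrC0947C. These 10 of the 16 named identifiers passed the threshold, and 4 of them were named for it. No value of a single library was tested as an outlier, since each group has 3 libraries; the spread of mutant replicate 1 is described above.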

How the results depend on the processing

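The 16 named identifiers kept their direction and stayed past the threshold in darkness under all 14 alternatives run for each. They were picked on these libraries for large changes without overlap, which favours this. Those named for darkness were also picked for holding without mutant replicate 1, which is among the alternatives. Of the alternative values of counts and shares, 372 stayed close to the value reported (counts within 1.5 times) and 10 did not. A fit of only the 6 libraries compared with the replicate block, added after the data were seen, called 1348 genes higher in darkness, against 2148; the replicate block with all 18 libraries called 2098 higher and 2112 lower. With a stricter filter (5 CPM in the highest group) raised runs numbered 4 and lowered runs 3, as fewer identifiers were tested, and with calls at any fold 26 and 37. With 1 of the 6 dark libraries left out, raised runs numbered 7 to 10 and lowered runs 5 to 10; the cause was not tested. Library totals in place of TMM factors moved the median of all genes in light to 0.1 on the log2 scale and made 62.6% of calls there higher, against 48.8%; in darkness 50.2% were higher in both. Interactions were positive in 40.7% of calls with library totals, against 52.3%. Depth limits identifiers under about 3 CPM, where a few reads set the fold.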
